A study of Homo sapiens with 18 samples.

Results

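HAP1 is a human cell line with an almost haploid genome that descends from KBM-7, a line of chronic myeloid leukaemia. The response described here is that of the HAP1 line labelled RB1CC1KO/FIP200KO to acute nutrient withdrawal, measured in 6 of the 18 libraries of the series. A library belongs to it where its labels give this line, in full medium or starved. The 3 control libraries came from cells in full medium (IMDM with antibiotics and 10% heat-inactivated fetal calf serum), and the 3 starved libraries from cells kept for 6 h in EBSS (Earle's balanced salts), a buffered salt and glucose solution without amino acids or serum. The other 12 libraries are the same pair of conditions, 3 libraries each, in unmodified HAP1 cells (WT) and in a line labelled ATG7KO. They are used here to compare the response, and for some genes the level, between lines. They also enter the fit from which the spread of every gene is estimated. The design asks how starvation changes RNA levels in lines in which a gene of autophagy was targeted. All lines share the HAP1 background, and each knockout label stands for a single line, so that the knockout and any other property of that line cannot be told apart. The RNA was polyadenylated RNA read with a directional kit as 75 bp single-end reads.

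Loss of amino acids and serum is read by several pathways. Uncharged transfer RNAs activate the kinase GCN2, which phosphorylates the initiation factor eIF2 and raises translation of the transcription factor ATF4. ATF4 in turn drives genes for amino acid uptake, amino acid synthesis and tRNA charging. At the lysosome the Rag GTPases stop recruiting the kinase mTORC1, which releases the ULK1 complex to start autophagy and lets the MiT/TFE factors enter the nucleus. Loss of insulin-like signalling releases the FOXO factors. RB1CC1, also called FIP200, is the large scaffold of the ULK1 complex. The immediate early genes, of which FOS and EGR1 are the best known, are genes that the ERK pathway and serum response factor switch on within minutes. Many of them encode transcription factors. Immediate early genes are induced by growth factors and also by many stresses, and their products in turn raise feedback inhibitors of ERK.

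The 6 libraries held between 15508772 and 26005942 reads in genes, against 4892072 in the shallowest library of the series, an ATG7KO library in EBSS. Reads of the mitochondrial genome made up 3.25% to 3.97% of reads in genes in full medium and 1.41% to 2.2% in EBSS. Reads outside annotated genes made up 11.2% to 15.1% and 9.39% to 12.6%. Levels are given in CPM, read counts scaled by TMM to a common library size, one gene's level being compared only with itself. A gene was called when its adjusted p in edgeR's quasi-likelihood test was below 0.05, and "rose" and "fell" are used only for called genes. Fold changes are on the log2 scale with a standard error (SE) derived from the test.

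The targeted gene gave no check of the label. RB1CC1 (ENSG00000023287, 24 exons) read 147, 171 and 152 CPM in full medium and 251, 280 and 260 CPM in EBSS. The groups did not overlap, and the gene rose by 0.75 ± 0.07 (SE, n = 3 against 3, adjusted p = 9.62e-12). In WT cells its mean went from 105 ± 10.3 to 222 ± 10.8 CPM (SD, n = 3), a response of 1.08, and the 2 responses differed by -0.33 ± 0.10 (adjusted p = 0.0305). In full medium the line read above WT by 0.58 (adjusted p = 8.3e-08). Counts over the whole gene cannot show a small deletion or a shifted reading frame, so the libraries are called RB1CC1KO-labelled.

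Of 15179 genes tested, 4835 rose (31.9%) and 5051 fell (33.3%) in the RB1CC1KO-labelled line. The counts of the gene lists below are to be read against these shares. A change of at least 2-fold was seen in 1456 of the genes that rose (9.59% of those tested) and 1805 of those that fell (11.9%), and at least 4-fold in 516 and 501. The median gene stood at -0.03. With upper-quartile in place of TMM scaling it stood at -0.18 and 37% rather than 48.9% of the called genes were higher, so that small changes depend on the scaling. In these bulk libraries, fewer cells of a type and less RNA per cell cannot be told apart.

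**Figure D1:**
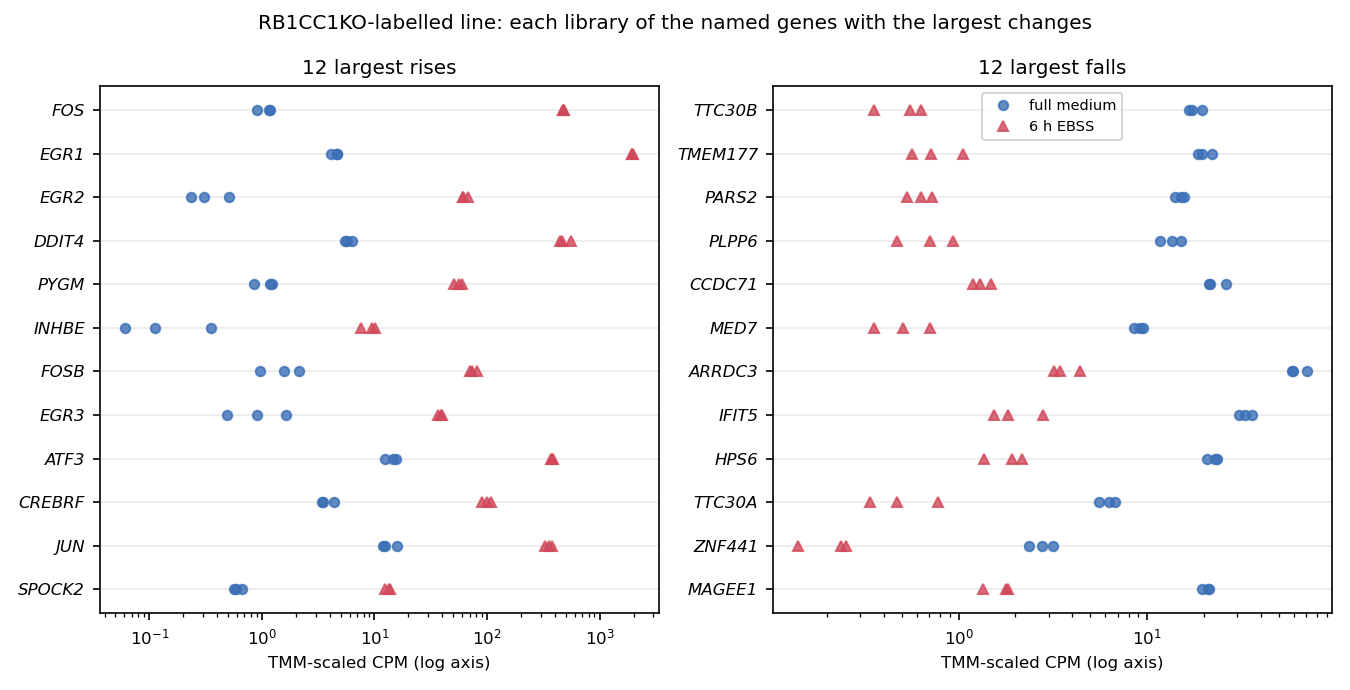
TMM-scaled CPM of each RB1CC1KO-labelled library (log axis) for the 12 largest rises (left) and the 12 largest falls (right) among called protein-coding genes whose mean log2 CPM was 1 or more and whose groups did not overlap. Circles are the 3 libraries in full medium and triangles the 3 in EBSS, and the shifts run from FOS (about 1 to over 470 CPM) to MAGEE1 (about 20 to under 2 CPM).

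Immediate early transcription factors led the rises among the named genes. FOS, the partner of JUN in the AP-1 dimer, read 1.18, 0.901 and 1.15 CPM in full medium and 486, 472 and 473 CPM in EBSS. The starved libraries lay within a narrow band far above the controls, a log2 fold change of 8.78 ± 0.16 (n = 3 against 3, adjusted p = 1.35e-22). It rests on 55 reads in the 3 control libraries together against 26080 in the starved ones. EGR1, a zinc finger factor, read 4.6, 4.67 and 4.13 CPM against 1940, 1950 and 1990 CPM and rose by 8.77 ± 0.12 (adjusted p = 7.6e-31). Its relative EGR2 went from 0.236, 0.507 and 0.303 CPM to 61.2, 67.7 and 61.3 CPM, and EGR3 from 1.65, 0.901 and 0.485 CPM to 39.3, 36.4 and 39.9 CPM. Both rose, by 7.47 ± 0.21 and 5.23 ± 0.23. EGR4 had no read in any control library and 0.593 to 1.19 CPM in EBSS. FOSB, another FOS family member, read 2.12, 1.58 and 0.971 CPM against 70.4, 72.9 and 80.7 CPM and rose by 5.57 ± 0.33. JUN read 16, 12 and 12.4 CPM against 354, 326 and 374 CPM and rose by 4.70 ± 0.12.

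The whole list of 28 immediate early genes held 24 that rose and 3 that fell, with a median of 2.94 against -0.03 over all genes. The summed level of the list was 1420 to 1520 CPM in the control libraries and 6260 to 6610 CPM in the starved ones. Leaving out any 1 of the 6 libraries gave 24 higher members again, and 2 instead of 3 lower without the control library 1 or the EBSS library 1. Besides the AP-1 and EGR genes, IER2 rose by 3.84 ± 0.10, ARC by 3.24 ± 0.18, NR4A1, an orphan nuclear receptor gene, by 2.79 ± 0.11 and JUNB by 2.71 ± 0.11. NR4A2 was not called, at 13.5 to 15.9 CPM in full medium and 13 to 17.4 CPM in EBSS. The members that fell were MYC, SRF and CCN1. MYC, the growth regulator, read 704, 621 and 638 CPM against 564, 567 and 599 CPM (-0.18 ± 0.07, adjusted p = 0.0138). SRF, the serum response factor itself, read 165, 147 and 148 CPM against 115, 108 and 116 CPM (-0.44 ± 0.07). CCN1, a secreted matrix protein under YAP and SRF control, fell from 98.5, 112 and 107 CPM to 63.4, 65.9 and 66.9 CPM.

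**Figure D2:**
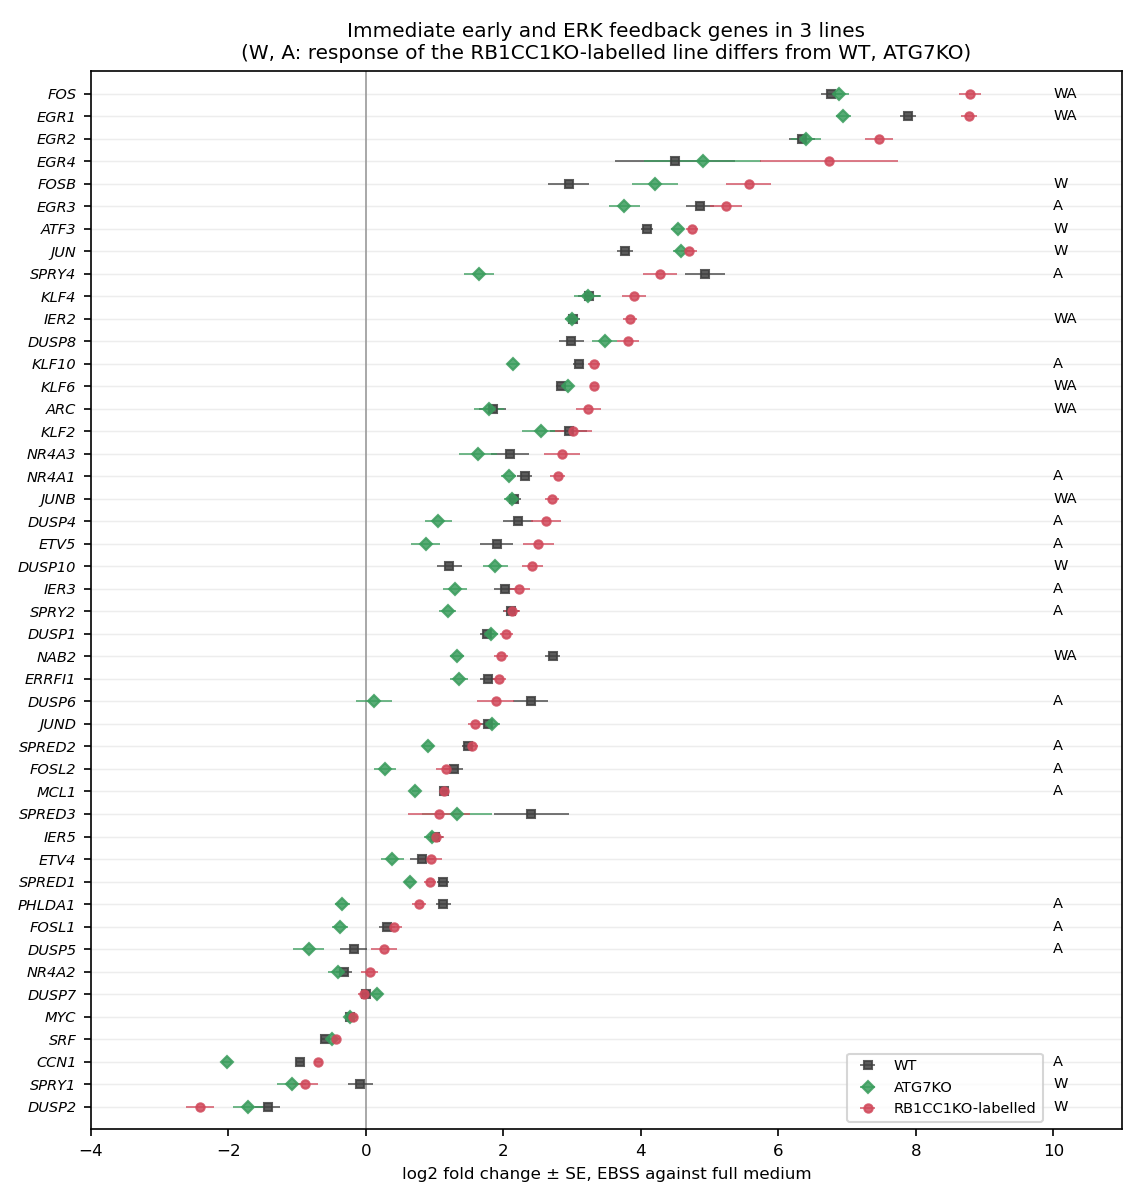
Log2 fold change in EBSS (± SE, n = 3 against 3) of the immediate early and ERK feedback genes in the RB1CC1KO-labelled line (circles), WT (squares) and ATG7KO (diamonds). The letters W and A mark a called difference between the response of the RB1CC1KO-labelled line and that of WT or ATG7KO; FOS, at 8.78 against 6.77 and 6.88, carries both. The plotted fold of EGR4, which had no read in the controls, depends on the prior count.

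Several early genes responded more strongly in the RB1CC1KO-labelled line than in the other lines. A difference of responses (interaction term) was called higher in the RB1CC1KO-labelled line than in WT for 407 genes (2.68% of those tested) and lower for 831 (5.47%). Against ATG7KO the counts were 149 higher (0.982%) and 349 lower (2.3%). Of the 28 early genes, 9 were called higher in this difference than in WT and 1 lower. Against ATG7KO 15 were called higher and none lower. A higher call is not always a stronger response: CCN1 fell here, and was called higher because it fell less than in ATG7KO (1.33). Both comparisons use the same RB1CC1KO-labelled libraries and are given side by side, not as support for each other. Leaving out single libraries moved these counts between 8 and 11 against WT and between 12 and 16 against ATG7KO, and with all libraries thinned to the depth of the shallowest they were 7 and 10. FOS responded more strongly by 2.02 ± 0.33 than in WT (adjusted p = 0.000405), where it went from a mean of 1.98 ± 0.88 to 208 ± 28.6 CPM (SD, n = 3), and by 1.91 ± 0.32 than in ATG7KO (adjusted p = 0.000809). FOSB differed from WT by 2.62 ± 0.51 (adjusted p = 0.00695). The WT controls were uneven for it, at 4.53 ± 3.39 CPM (SD, n = 3). In full medium FOSB stood at -1.43 ± 0.47 against WT, which was not called (adjusted p = 0.052). In EBSS it stood above WT by 1.19 ± 0.22 (adjusted p = 0.00106). The difference of its response from ATG7KO was 1.37 ± 0.58 and was not called. For EGR1 the differences were 0.89 ± 0.17 and 1.83 ± 0.16. EGR1 stood below WT in full medium (-0.76, adjusted p = 0.000547), while in EBSS its difference from WT was 0.13 ± 0.08 and was not called (adjusted p = 0.219). ARC, IER2, KLF6 and JUNB were higher in both comparisons. JUN and ATF3 differed from WT, by 0.94 ± 0.17 and 0.65 ± 0.13, while their differences from ATG7KO were 0.12 ± 0.17 and 0.21 ± 0.13 and were not called. NAB2, a corepressor of the EGR factors, went the other way against WT: it rose by 1.97 ± 0.11 here and by 2.72 in WT, a difference of -0.75 (adjusted p = 0.00125).

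The bases upstream of the EGR1 start are shown because serum response factor binds CArG boxes. In the 250 bases before the RefSeq start of EGR1 (GRCh38.p14, chr5:138465229-138465478, plus strand) a search for the CArG box on both strands found 2 matches, at -105 to -96 and -83 to -74 from the start, given in capitals.
EGR1: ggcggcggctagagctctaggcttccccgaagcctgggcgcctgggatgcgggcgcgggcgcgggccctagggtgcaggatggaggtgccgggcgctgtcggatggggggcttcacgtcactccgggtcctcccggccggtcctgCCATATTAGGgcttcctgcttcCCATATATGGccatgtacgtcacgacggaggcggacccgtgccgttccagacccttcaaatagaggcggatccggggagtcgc
Among the 19 immediate early genes with an entry in the RefSeq promoter table, only EGR1 and SRF held a match in this window, against 0.998% of the 11025 tested genes with an entry. FOS held none of the motifs searched within these 250 bases. Bases further upstream were not searched, so a site there would be missed. A match is a description of the letters and not evidence of binding.

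Feedback inhibitors of ERK rose in the same libraries: 15 of 19 rose and 2 fell, with a median of 1.89. SPRY4, a Sprouty inhibitor of receptor signalling, read 0.531, 0.394 and 0.303 CPM in full medium and 9.43, 6.56 and 8.51 CPM in EBSS. It rose by 4.28 ± 0.25, on 21 reads against 435. DUSP8, a phosphatase of stress kinases, rose from 7.67, 5.57 and 7.16 CPM to 101, 82.7 and 104 CPM (3.82 ± 0.16). DUSP1, the early phosphatase of ERK, JNK and p38, read 10.7, 9.46 and 9.35 CPM against 42.9, 38.1 and 41.2 CPM (2.05 ± 0.10), and the control and starved libraries did not overlap. ERRFI1, an inhibitor of the EGF receptor, rose by 1.94 ± 0.10, SPRY2 by 2.13 ± 0.11 and SPRED2 by 1.55 ± 0.08. DUSP5 and DUSP7 were not called, at 0.26 and -0.03. DUSP2 fell, from 10.9, 9.29 and 11.8 CPM to 2.61, 1.91 and 1.41 CPM (-2.41 ± 0.20), and SPRY1 fell by 0.88.

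For these inhibitors the difference was called mainly against ATG7KO, with 9 members higher and none lower, against 1 higher and 2 lower for WT. At equal depth 4 were higher than in ATG7KO. SPRY4 responded more strongly than in ATG7KO by 2.63 ± 0.36 (adjusted p = 1.53e-05), and against WT its difference was -0.65 ± 0.51. DUSP6, the ERK-specific phosphatase, went from 0.472, 1.18 and 1.15 CPM to 4.56, 2.71 and 3.31 CPM, a rise of 1.89. Its response was 2.4 in WT and 0.12 in ATG7KO, and only the difference of 1.77 from ATG7KO was called (adjusted p = 0.00439).

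Among 22 genes for secreted ligands only 11 had enough reads to be tested. Of these, 9 rose at least 2-fold and 1 fell. INHBE, an activin subunit induced by ATF4, read 0.354, 0.113 and 0.0607 CPM against 10.1, 7.54 and 9.49 CPM and rose by 5.61 ± 0.28. Without the control library 1 the value was 6.55. The controls held 9 reads in all. STC2, stanniocalcin 2, read 56.3, 61.9 and 55.5 CPM against 922, 969 and 968 CPM (4.04 ± 0.07). VEGFA, the angiogenic factor, read 35.9, 31.8 and 33.4 CPM against 416, 392 and 399 CPM (3.58 ± 0.07). Both responded slightly more than in WT, by 0.54 and 0.46. GDF15, HBEGF, a ligand of the EGF receptor, and LIF rose by 4.18, 1.51 and 1.68. The chemokine gene CCL2 fell, from 2.08 to 2.83 CPM to 0.339 to 0.593 CPM.

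The ATF4 programme rose almost throughout. Of 42 listed genes 40 were tested, 38 rose, 32 of them at least 2-fold, and 1 fell. The median was 2.4, and the summed level went from 4400 to 4480 CPM to 17500 to 18300 CPM. DDIT4, which encodes the mTORC1 inhibitor REDD1, read 5.66, 5.52 and 6.37 CPM against 553, 443 and 466 CPM. Every starved library was far above every control, and the gene rose by 6.38 ± 0.10 (adjusted p = 1.72e-32). DDIT3, the pro-apoptotic factor CHOP, read 6.72, 6.25 and 6.37 CPM against 143, 130 and 127 CPM (4.37 ± 0.08). ATF3, a stress factor counted here with the immediate early genes and not on the ATF4 list, read 14.5, 12.3 and 15.4 CPM against 385, 369 and 376 CPM (4.75 ± 0.09). HERPUD1, which acts in degradation of endoplasmic reticulum proteins, read 29.2, 30.5 and 30.1 CPM against 484, 470 and 460 CPM (3.98 ± 0.06). ATF4 itself rose by 1.90 ± 0.06 at the RNA level. The member that fell was ALDH18A1, the first enzyme of proline synthesis (-0.29), and CBS was not called. CREBRF, a regulator that was outside the list, read 3.48, 4.39 and 3.4 CPM against 90.9, 109 and 98.9 CPM (4.72 ± 0.11). SPOCK2, a secreted proteoglycan gene also outside the lists, read 0.59, 0.563 and 0.668 CPM against 12.4, 13.6 and 13.5 CPM (4.43).

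Against WT 8 ATF4 members responded more strongly and 2 less, and against ATG7KO 6 more strongly and 1 less. DDIT4 was higher in both, by 0.84 ± 0.15 (adjusted p = 0.000321) and 0.94 ± 0.15 (adjusted p = 0.000111). In WT its mean went from 7.41 ± 1.04 to 339 ± 22.4 CPM. HERPUD1, STC2, SESN2 and VEGFA were higher in both comparisons by 0.30 to 0.69. No enzyme of amino acid synthesis on the list was called in either, ASNS standing at 0.07 and -0.01. Of its tRNA synthetases, CARS1 responded more than in WT by 0.33 and SARS1 less by 0.37. TRIB3, a pseudokinase that damps ATF4, responded less than in ATG7KO by 0.62.

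The other motifs searched were the ATF4 response element TGATGNAA, the cyclic AMP response element TGACGTCA, the FOXO site TGTTTAC and the CLEAR core described with the lysosome. None of the matches printed here overlaps a match of another of them. All were searched on both strands in the same 250-base window of RefSeq GRCh38.p14. The letters TGATGNAA were found in 3 of the 32 ATF4-list members with an entry (9.38%), ASNS, CHAC1 and HERPUD1, against 1.33% of tested genes. AARS1 and IARS1 held them among 16 cytosolic tRNA synthetase genes (12.5%), and SLC1A3 among 18 amino acid transporter genes (5.56%). ATF3 and the BH3-only gene HRK held them too. No searched member of the FOXO, lysosome and autophagy machinery lists described below did. DDIT4 and PARS2 held none of the searched motifs. The matches are shown in capitals for ASNS (chr7:97872409-97872658, minus strand), the classical amino acid response gene, with its match at -68 to -61, for HERPUD1 (chr16:56931892-56932141, plus strand), where the match at -176 to -169 lies on the opposite strand, and for ATF3 (chr1:212565157-212565406, plus strand), with its match at -191 to -184.
ASNS: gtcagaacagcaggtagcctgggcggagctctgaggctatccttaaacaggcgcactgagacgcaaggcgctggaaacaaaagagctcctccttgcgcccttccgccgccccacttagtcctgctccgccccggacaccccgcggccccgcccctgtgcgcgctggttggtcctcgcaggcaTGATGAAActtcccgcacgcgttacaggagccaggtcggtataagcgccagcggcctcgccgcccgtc
HERPUD1: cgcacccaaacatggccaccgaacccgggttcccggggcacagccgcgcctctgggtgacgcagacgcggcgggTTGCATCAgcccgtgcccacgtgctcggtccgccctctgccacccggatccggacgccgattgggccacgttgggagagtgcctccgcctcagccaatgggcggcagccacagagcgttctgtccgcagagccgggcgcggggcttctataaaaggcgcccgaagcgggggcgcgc
ATF3: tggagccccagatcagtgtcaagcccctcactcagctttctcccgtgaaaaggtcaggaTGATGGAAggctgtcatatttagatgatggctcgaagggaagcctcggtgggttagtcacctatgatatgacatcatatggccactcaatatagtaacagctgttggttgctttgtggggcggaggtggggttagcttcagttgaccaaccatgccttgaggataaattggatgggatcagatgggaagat

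Genes of amino acid supply rose as well. Of 22 transporters 15 rose and 2 fell (median 0.99), and with upper-quartile scaling 15 rose and 5 fell. SLC38A2, a system A transporter of small neutral amino acids, read 110, 134 and 111 CPM against 1590, 1690 and 1500 CPM (3.75 ± 0.08). SLC7A11, the cystine importer, read 80.3, 93.3 and 78.2 CPM against 998, 1070 and 1050 CPM (3.63 ± 0.08), and its heavy chain SLC3A2 rose by 2.52 ± 0.07. SLC1A4 rose by 2.44, and SLC7A6 and SLC16A10 fell by 0.45 and 0.21. Of 28 tested genes of amino acid synthesis and one-carbon metabolism, 17 rose and 5 fell (median 0.37), against 15 and 8 with upper-quartile scaling. ASNS, asparagine synthetase, read 75.4, 85 and 83.7 CPM against 770, 791 and 678 CPM (3.20 ± 0.07). GPT2, PSAT1 and CTH, enzymes of alanine, serine and cysteine synthesis, rose by 2.83, 2.41 and 2.33.

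Cytosolic and mitochondrial tRNA synthetases, the enzymes that charge transfer RNAs in each compartment, moved apart. In the cytosolic set 13 of 21 rose and 3 fell (median 0.56), against 13 and 7 with upper-quartile scaling. CARS1 read 66.3, 62.9 and 65 CPM against 366, 342 and 335 CPM (2.42 ± 0.07), and TARS1, GARS1 and MARS1 rose by 1.88 ± 0.06, 1.87 ± 0.06 and 1.52 ± 0.06. In the mitochondrial set 2 of 17 rose and 11 fell (median -0.36). PARS2, the mitochondrial prolyl-tRNA synthetase, read 15.7, 14 and 15.1 CPM in full medium and 0.534, 0.72 and 0.633 CPM in EBSS. The starved libraries held 35 reads in all against 763, and the gene fell by 4.53 ± 0.19 (adjusted p = 2.92e-21). With every library thinned to equal depth the value was -5.34. MARS2, the methionyl enzyme, read 52.5, 48.2 and 51 CPM against 10.4, 8.13 and 10.1 CPM (-2.42 ± 0.10). HARS2 and LARS2 fell by 1.05 and 0.77. WARS2 and VARS2 rose, by 0.38 and 0.20.

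PARS2 fell further than in the other lines. In WT it went from 14.4 ± 1.19 to 2.36 ± 0.07 CPM (SD, n = 3), a fall of 2.61, and the difference was -1.92 ± 0.28 (adjusted p = 1.84e-05). The difference from ATG7KO, where the response was -2.91, was -1.62 ± 0.31 (adjusted p = 0.00118). Without the ATG7KO library 2 in EBSS it was -1.20 and no longer called (adjusted p = 0.0794). In full medium PARS2 was not called between this line and WT (0.05, adjusted p = 0.837). MARS2 also fell further, by 0.82 ± 0.14 than in WT and by 0.63 ± 0.14 than in ATG7KO.

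Of the genes that restrain mTORC1, 9 of 18 tested rose and 4 fell (median 0.20), against 7 and 5 with upper-quartile scaling (median 0.06). Beside DDIT4, SESN2, the leucine sensor Sestrin2, read 26.4, 24.4 and 25.9 CPM against 437, 395 and 443 CPM (4.06 ± 0.08), and responded more strongly than in WT by 0.69 ± 0.11 (adjusted p = 5.26e-05). TSC1, the tuberous sclerosis complex scaffold, read 50.5, 50.1 and 44.2 CPM against 139, 150 and 162 CPM (1.64 ± 0.07). AKT1S1 rose by 0.77. SESN1 and DEPDC5, a subunit of the GATOR1 complex, fell by 0.61 and 1.01. DEPTOR, an inhibitor bound to mTOR, was not called here (0.10), while it responded by 0.86 in WT and 0.74 in ATG7KO, and both differences were called (adjusted p = 0.00809 and 0.0487).

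In the folliculin, Rag and MiT/TFE set 9 of 16 rose and 5 fell (median 0.38). FLCN, the GTPase-activating partner of RagC, read 15.7, 16.2 and 16.6 CPM against 140, 130 and 136 CPM (3.06 ± 0.08). RRAGC rose from 37.9, 41.2 and 38.9 CPM to 157, 154 and 154 CPM (1.98 ± 0.07), and FNIP1 and FNIP2, the partners of folliculin, by 1.77 and 1.51. TFEB rose by 1.33. RRAGA and LAMTOR2, which hold the Rag complex together at the lysosome, fell by 0.88 and 0.62.

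All 4 tested subunits of the ULK1 complex rose, RB1CC1 included. ULK1, its kinase, read 49.9, 42.9 and 44.7 CPM against 127, 110 and 121 CPM (1.38 ± 0.09), ATG101 rose by 0.76 ± 0.09 and ATG13 by 0.60 ± 0.06. Of 33 tested genes of the autophagy machinery 20 rose and 4 fell (median 0.32), and with upper-quartile scaling 17 rose and 7 fell. ZFYVE1, which marks the membranes from which autophagosomes form, read 19.6, 18.9 and 18.3 CPM against 85.4, 76.6 and 87.3 CPM (2.13 ± 0.09). UVRAG rose by 1.38 ± 0.08, and MAP1LC3B, which has a near-identical copy that could share its reads, by 1.40 ± 0.06. GABARAP read 0.668 to 1.18 CPM against 8.47 to 9.49 CPM, and its response exceeded that in ATG7KO by 1.37 (adjusted p = 0.00482). Of 16 cargo receptors 11 rose and none fell (median 0.53). CALCOCO2, the receptor NDP52, rose by 1.23 ± 0.07, less than in WT by 0.30 (adjusted p = 0.0374). TOLLIP rose by 1.14 and SQSTM1, the p62 receptor, by 0.76.

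The lysosome list was mixed, with 19 of 47 rising and 10 falling at a median of 0.06, and with upper-quartile scaling 14 rising and 17 falling at -0.08. CLCN7, the lysosomal chloride exchanger, read 56.2, 48.5 and 51.3 CPM against 118, 98.7 and 116 CPM (1.09 ± 0.09). NEU1, the lysosomal sialidase, rose by 0.78 ± 0.07 and by 1.15 in WT, a difference of -0.38 (adjusted p = 0.019). The proton pump subunits ATP6V1B2 and ATP6V1H rose by 0.76 and 0.71. SGSH, a heparan sulphate hydrolase, fell by 0.87. The core of the CLEAR element, TCACGTGA, which MiT/TFE factors bind, was found upstream of 6 of 30 lysosomal genes (20%) against 1.69% of tested genes: ATP6V0D1, ATP6V1G1, CTSA, GAA, LAMP1 and MCOLN1. Their responses ran from -0.56 for CTSA to 0.46 for ATP6V0D1.

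The list of FOXO factors and genes repressed by insulin signalling held 16 of 24 tested genes that rose and 5 that fell (median 0.56). The FOXO site was found upstream of 1 of its 21 genes with an entry (4.76%), BCL2L11, against 1.85% of tested genes. TSC22D3, the leucine zipper protein GILZ, read 23, 25.4 and 25.9 CPM against 518, 464 and 488 CPM (4.30 ± 0.08). KLHL24 read 25.5, 31.5 and 24.5 CPM against 315, 317 and 284 CPM (3.49 ± 0.08), and CCNG2, cyclin G2, rose by 2.50 ± 0.07. For these 3 genes no difference from WT or ATG7KO was called. BCL6, a transcriptional repressor, read 5.48, 5.69 and 5.76 CPM against 45.3, 51.2 and 51.7 CPM (3.13 ± 0.10) and responded more strongly than in WT by 0.93 ± 0.15 and than in ATG7KO by 1.40 ± 0.14 (adjusted p = 4.38e-08). IRS2, an adaptor of the insulin receptor, rose by 3.22. All 4 tested alpha-arrestins, adaptors for ubiquitination of membrane proteins, fell. ARRDC3 read 59.6, 70.2 and 59 CPM against 3.2, 3.47 and 4.43 CPM (-4.11 ± 0.11, adjusted p = 1.84e-26). The falls of ARRDC1 and ARRDC4 were small (-0.40 and -0.27). Without the EBSS library 2 they were -0.24 (adjusted p = 0.223) and -0.18 (adjusted p = 0.219).

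The Krüppel-like factor genes rose in 12 of 13 cases (median 1.66). KLF6 read 58.3, 60 and 53.8 CPM against 557, 568 and 594 CPM (3.32 ± 0.06), KLF10 read 18.9, 17.9 and 17.4 CPM against 192, 172 and 179 CPM (3.32 ± 0.09), and KLF11 rose by 2.89 ± 0.10. KLF10 responded more strongly than in ATG7KO by 1.18 ± 0.12 (adjusted p = 6.14e-08). KLF13 fell by 0.17. Genes of messenger RNA decay rose in 17 of 20 cases. ZFP36, tristetraprolin, which destabilises AU-rich transcripts, read 5.19, 4.67 and 5.52 CPM against 65.4, 57.4 and 65.8 CPM (3.61 ± 0.12). PNRC1 rose by 3.45 ± 0.09 and the antiproliferative gene BTG1 by 2.75 ± 0.07. Its relative BTG2 fell, from 51.8, 56.1 and 59.7 CPM to 26.6, 27.1 and 22.9 CPM (-1.12 ± 0.08). BTG2 was not called in WT (-0.11), and the difference of -1.01 ± 0.11 was (adjusted p = 2.12e-07).

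Within the network around MYC, 6 of 13 rose and 4 fell, which is 46.2% and 30.8% against 31.9% and 33.3% of all genes tested. The partner MAX read 80.1, 79.6 and 76.8 CPM against 319, 313 and 305 CPM (1.99 ± 0.07), and MXD1, an antagonist of MYC, rose by 2.26 ± 0.08. MGA, a large repressor that pairs with MAX, read 114, 117 and 105 CPM against 24.3, 25 and 24.4 CPM (-2.19 ± 0.08) and fell further than in WT by 1.00 ± 0.11 (adjusted p = 2.12e-07). MYCL read 12, 13.4 and 14.6 CPM against 3.2, 2.75 and 2.11 CPM (-2.29 ± 0.14) and fell further than in WT by 1.56 ± 0.19 and than in ATG7KO by 1.25 ± 0.20.

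Genes for making ribosomes moved in several directions. Host genes of small nucleolar RNAs rose in 13 of 16 cases and fell in 2 (median 0.91), for example SNHG7, at 52, 47 and 54 CPM against 180, 144 and 161 CPM (1.66 ± 0.08), SNHG5 (1.60) and SNHG1 (1.12). Of 39 tested ribosome biogenesis factors 6 rose and 21 fell (median -0.16), against 3 and 27 with upper-quartile scaling. UTP15 read 50.5, 51.3 and 46.1 CPM against 15.9, 14.2 and 15.8 CPM (-1.69 ± 0.09), and RRS1, GRWD1 and NIP7, which act in assembly of the large subunit, fell by 1.54, 1.34 and 1.26. POLR1A and POLR1B, the large subunits of RNA polymerase I, fell by 0.61 and 0.83. Cytosolic ribosomal protein genes rose in 33 of 57 cases and fell in 1, by small amounts (median 0.19). RPS9, at 441, 373 and 471 CPM against 720, 590 and 692 CPM, rose by 0.64 ± 0.08, and RPLP0 by 0.41. That count was 22 without the EBSS library 1, and 11 rose and 4 fell with upper-quartile scaling (median 0.05). Many of these genes have processed pseudogenes that could share reads.

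Most mitochondrial ribosomal protein genes fell. Of 46 mitochondrial ribosomal protein genes 3 rose and 29 fell (median -0.32), led by MRPL17, at 50.1, 49 and 56.6 CPM against 11.2, 9.57 and 9.99 CPM (-2.34 ± 0.11), MRPL24 (-1.22) and MRPL16 (-0.98). Nuclear genes of the respiratory chain were mostly not called: 4 of 42 rose and 12 fell, and with upper-quartile scaling 1 rose and 27 fell. With TMM scaling that is 9.52% and 28.6%, against 31.9% and 33.3% of all genes tested. Without the control library 3, 5 rose and 7 fell, and 2 rose without the control library 2 or the EBSS library 1. Of 13 messenger RNAs of the mitochondrial genome 6 fell and none rose. MT-ND5 read 1970, 2040 and 1560 CPM against 659, 1100 and 878 CPM (-1.08 ± 0.20, adjusted p = 0.000324). MT-ATP6 read 2480, 3050 and 2200 CPM against 928, 1770 and 1190 CPM (-0.99 ± 0.24). In both genes the EBSS library 2 was the highest of the starved libraries. Without it 11 of the 13 fell. Without EBSS library 1, the lowest, 3 fell, and 4 fell without the control library 1, the control library 2 or the EBSS library 3. With upper-quartile scaling 11 fell.

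**Figure D3:**
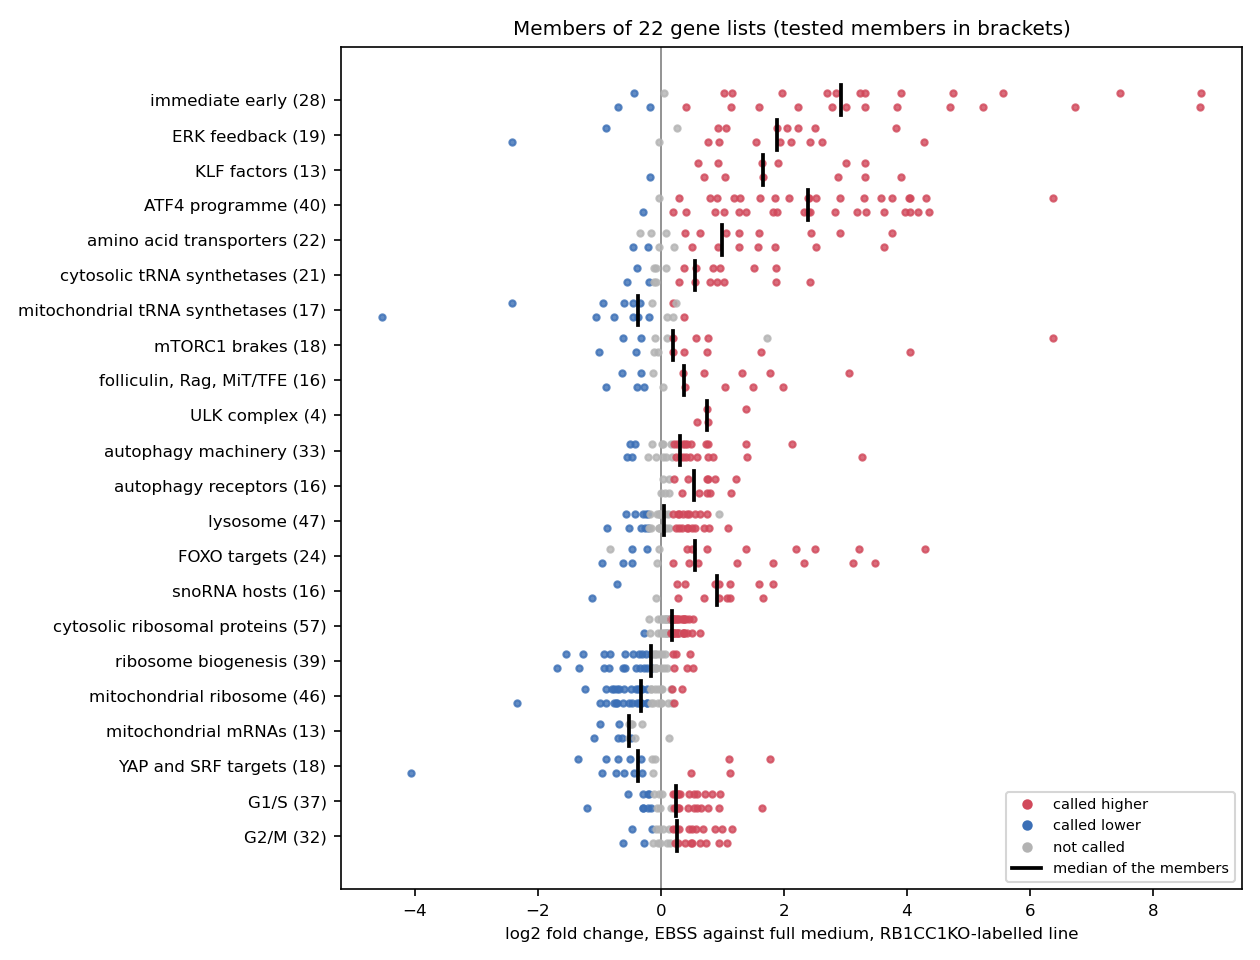
Log2 fold change in EBSS of every tested member of 22 gene lists in the RB1CC1KO-labelled line. The row marked FOXO targets is the list of FOXO factors and genes repressed by insulin signalling. Points to the right (called higher) dominate the early genes, the KLF factors and the ATF4 programme (medians 2.94, 1.66 and 2.4), points to the left the mitochondrial ribosome (median -0.32); grey points were not called and black bars are medians.

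Lipid, protein folding and redox genes had no common direction. Over all genes tested 31.9% rose and 33.3% fell. The shares were 24% and 44% in cholesterol synthesis, 46.2% and 26.9% in the unfolded protein response and 42.9% and 35.7% in heat shock. They were 26.3% and 26.3% in the NRF2 list, 44.4% and 44.4% in the iron list and 16.7% and 30% in the proteasome. In cholesterol synthesis 6 of 25 tested rose and 11 fell: MSMO1, a sterol demethylase, read 54.8, 63.7 and 51.8 CPM against 20.2, 17.4 and 16.1 CPM (-1.66 ± 0.10), and HMGCS1 fell by 0.54, while SREBF2, their transcription factor, rose by 0.75 ± 0.06 and more than in WT by 0.48. SREBF1 and FASN, fatty acid synthase, rose by 0.99 and 0.83 and more than in WT by 0.64 and 0.53. ELOVL6 fell by 1.10. In the unfolded protein response 12 of 26 rose and 7 fell, with XBP1 at 77.1, 74.8 and 79.5 CPM against 308, 293 and 307 CPM (1.97 ± 0.06) and the chaperone gene HSPA5 falling by 0.41. XBP1 rose less than in ATG7KO by 0.52 (adjusted p = 9.53e-05). Of 14 tested heat shock genes 6 rose, led by BAG3 (0.81), and 5 fell, with HSPA1A and its near-identical copy HSPA1B at -1.17 and -1.06. Of 19 NRF2 targets 5 rose and 5 fell, among them HMOX1, haem oxygenase (-0.89), while NFE2L2 itself rose by 1.38 ± 0.07. Of 9 iron genes 4 rose and 4 fell, and SLC40A1, the iron exporter ferroportin, went from 3.24, 4.56 and 3.76 CPM to 0.296, 0.0847 and 0.352 CPM (-4.08 ± 0.36). Of 30 tested proteasome subunits 5 rose and 9 fell, none by 2-fold. With upper-quartile scaling the counts higher and lower were 3 and 12 in cholesterol synthesis, 11 and 11 in the unfolded protein response, 4 and 8 in heat shock, 2 and 8 in the NRF2 list, 1 and 4 in the iron list and 1 and 16 in the proteasome.

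Of 25 tested genes of glycolysis and hypoxia 12 rose and 5 fell, and with upper-quartile scaling 6 rose and 8 fell. The glucose transporter gene SLC2A3 rose from 5.6, 6.14 and 5.04 CPM to 49.1, 43.1 and 39.4 CPM (2.97 ± 0.12), and EGLN3, an oxygen-sensing prolyl hydroxylase, fell by 2.21 ± 0.11. ANKRD37 responded more than in WT by 1.03 ± 0.32. PYGM, muscle glycogen phosphorylase, was outside the list and read 1.24, 1.18 and 0.85 CPM against 50.9, 59.4 and 56.5 CPM (5.66 ± 0.16). It exceeded the response of WT by 1.22 ± 0.33 (adjusted p = 0.0173) and that of ATG7KO by 1.27 ± 0.31 (adjusted p = 0.013).

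Genes of the BCL2 family, which control cell death, moved both ways: 6 of 15 tested rose and 5 fell, which is 40% and 33.3% against 31.9% and 33.3% of all genes tested. HRK, a BH3-only gene, read 1.77, 1.41 and 1.21 CPM against 27.7, 26.1 and 27.8 CPM (4.21 ± 0.18). BBC3 (PUMA) read 5.84, 3.77 and 4.25 CPM against 68.8, 49.2 and 65.1 CPM (3.72 ± 0.19) and PMAIP1 (NOXA) rose by 2.79 ± 0.07. MCL1, which opposes them, rose by 1.14 ± 0.06, more than in ATG7KO by 0.42, and BCL2L1 (BCL-XL) fell by 0.59. Of 19 p53 targets 9 rose and 3 fell, against 6 and 5 with upper-quartile scaling, and MDM2, the p53 ubiquitin ligase, was not called (-0.23).

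Brakes of the cell cycle rose beside genes of DNA replication and mitosis. Of 13 genes for CDK inhibitors and related cyclins 9 rose and 2 fell, with CDKN1B (p27) at 70.9, 68 and 70.3 CPM against 177, 156 and 162 CPM (1.24 ± 0.06). CCND1, cyclin D1, fell by 2.03. Of 37 G1/S genes 22 rose and 9 fell (median 0.24), and with upper-quartile scaling 16 rose and 14 fell. E2F1 and the origin recognition gene ORC1 rose by 0.95 and 0.84, and GINS4 fell by 1.20. Of 32 G2/M genes 19 rose and 4 fell (median 0.26), against 16 and 9 with upper-quartile scaling. AURKA, a mitotic kinase, rose from 156, 156 and 149 CPM to 300, 319 and 304 CPM (1.00 ± 0.06). CCNB1, cyclin B1, fell by 0.62. Of 18 tested YAP and SRF targets 4 rose and 11 fell (median -0.38), with TAGLN rising by 1.77 ± 0.17. ANKRD1 fell, with 22 reads in the control libraries and 1 in the starved ones. CCN1 fell less than in ATG7KO by 1.33 ± 0.09 (adjusted p = 3.36e-12).

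Most markers of blood and epithelial cells had few reads in this line. Of 22 haematopoietic markers 14 had too few reads to test, among them PTPRC, CD34, SPI1 and GATA1, and 7 of 13 epithelial markers had too few, among them CDH1. The summed level of the 8 haematopoietic markers tested was 124 to 133 CPM in full medium and 98.4 to 109 CPM in EBSS, and 4 of them rose and 3 fell. CD38 and GATA2 rose by 1.93 and 0.40, and TAL1, a haematopoietic transcription factor, fell from 50.4, 54.7 and 49.3 CPM to 14.9, 14.4 and 14.6 CPM (-1.81 ± 0.09). Of 9 mesenchymal genes tested 3 rose and 3 fell (median -0.19). Their sum was 669 to 705 CPM against 1230 to 1310 CPM, most of it VIM, vimentin, which read 523, 496 and 501 CPM against 1050, 951 and 990 CPM (0.98 ± 0.06). The neural list summed to 717 to 807 CPM against 735 to 807 CPM. Of its 8 tested members 1 rose and 3 fell (median -0.08), among them OLIG2, which fell by 2.70 ± 0.18. The part of changing cell shares in these values and in the gene groups above was not tested.

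The largest falls among genes that met the rule for naming were in genes of few exons. TTC30B, an intraflagellar transport gene with 1 exon, read 16.6, 19.5 and 17.3 CPM against 0.356, 0.55 and 0.633 CPM (-5.10 ± 0.20), and its close paralog TTC30A fell by 3.63 ± 0.25. Reads of these paralogs could be shared. TMEM177, which acts in assembly of cytochrome c oxidase, read 22.2, 19.5 and 18.6 CPM against 0.711, 1.06 and 0.563 CPM (-4.61 ± 0.19). CCDC71 read 26.2, 21.5 and 21.2 CPM against 1.3, 1.19 and 1.48 CPM (-4.14 ± 0.15), and MED7, a Mediator subunit, 8.49, 9.51 and 9.22 CPM against 0.356, 0.508 and 0.703 CPM (-4.13 ± 0.23). IFIT5, an interferon-induced RNA-binding protein, fell from 30.6, 36.1 and 32.9 CPM to 1.54, 1.82 and 2.81 CPM (-4.05 ± 0.15). PLPP6, HPS6 and MAGEE1, each with 1 exon, fell by 4.19, 3.63 and 3.61, and the zinc finger gene ZNF441 by 3.62. That rule takes protein-coding genes whose mean log2 CPM was 1 or more, and genes below that level fell further in some cases. Of the 12 genes it names, TTC30B, PLPP6, HPS6, TTC30A and MAGEE1 have 1 exon and ARRDC3, with 8, has the most.

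Across the tested protein-coding genes with a known exon number the change was lower where exons were fewer. The median was -0.86 for the 239 genes with 1 exon, -0.58 for 474 with 2, -0.28 for 1504 with 3 to 4, -0.14 for 3533 with 5 to 8, 0.04 for 4197 with 9 to 16 and 0.23 for 2887 with 17 or more. In the 1-exon bin 59% fell and 17.2% rose, and in the last bin 16.9% fell and 51.2% rose. A fall of at least 4-fold was seen in 24.3% of the 1-exon genes and 0.173% of the last bin. The bins also differed in mean level, from a median log2 CPM of 2.63 to 5.69, and in exonic length, from 2513 to 8117 bases. Among genes whose mean log2 CPM was 5 or more, a limit chosen after seeing the data, the medians ran from -0.53 to 0.29. In WT the medians of the same bins, over all tested genes, ran from -0.48 to 0.18, and in ATG7KO from -0.68 to 0.24.

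**Figure D4:**
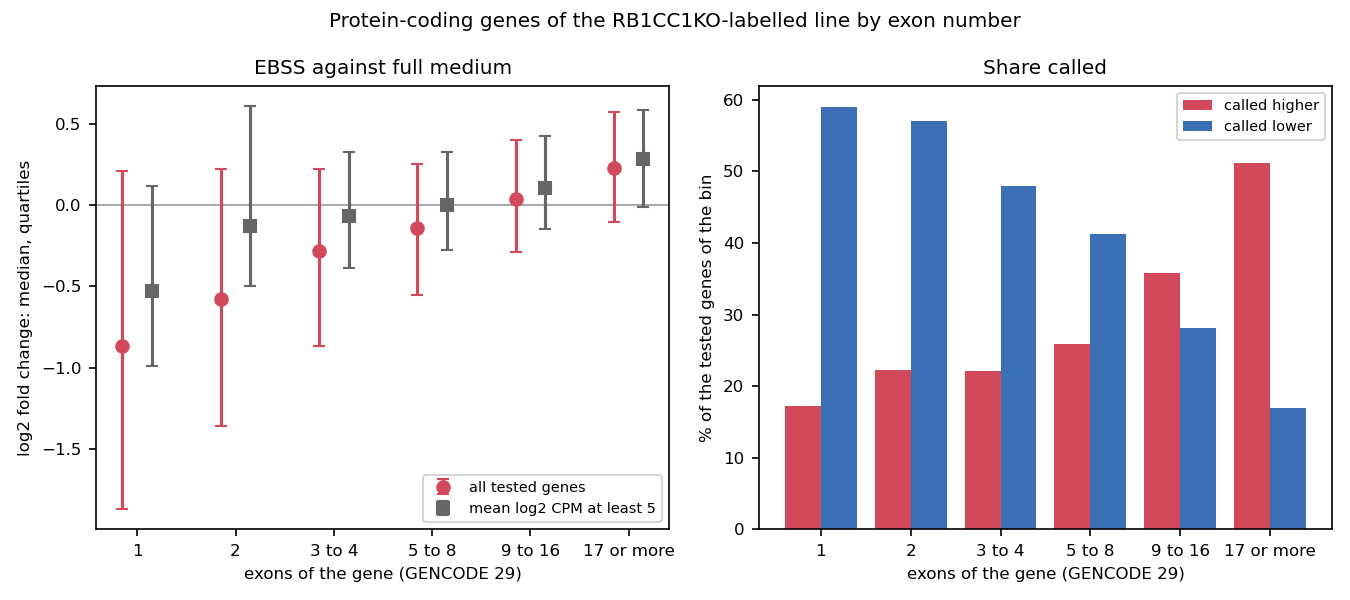
Left, median and quartiles of the log2 fold change in EBSS in the RB1CC1KO-labelled line for protein-coding genes binned by exon number, over all tested genes and over those whose mean log2 CPM was 5 or more. Right, share of each bin called higher or lower; the share called lower goes from 59% at 1 exon to 16.9% at 17 or more.

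The share of genes with a lower response than in WT was also largest in the 1-exon bin. Of the 239 genes with 1 exon, 53 responded lower than in WT and 2 higher. The lower share is 22.2% against 5.47% of all tested genes. Against ATG7KO 30 of them responded lower and 3 higher, where 2.3% of all tested genes were lower. That lower count lay between 13 and 28 with 1 library left out and was 8 of 193 at equal depth. Of 411 zinc finger genes named ZNF, 260 fell and 74 rose (median -0.59), and 67 responded lower than in WT and 7 higher. The ZNF count against WT was 38 without the RB1CC1KO-labelled control library 2, 42 without the WT library 1 in EBSS, 41 without the RB1CC1KO-labelled EBSS library 1 and 23 at equal depth. Against ATG7KO it was 33, and it was 20, 12 and 16 without the ATG7KO control library 1, EBSS library 1 and EBSS library 2, 14, 17 and 13 without the RB1CC1KO-labelled control libraries 2 and 3 and EBSS library 1, and 9 at equal depth.

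Of the 831 genes that responded lower than in WT, 579 fell in the RB1CC1KO-labelled line, and 346 of these fell in both lines. A further 50 fell here and rose in WT. BLOC1S3, a subunit of a complex for lysosome-related organelles, read 13.9, 13.6 and 13.9 CPM against 3.5, 2.16 and 1.83 CPM, a fall of 2.47 ± 0.17 against 0.81 in WT. At equal depth the value in this line was -3.21. It differed from WT by -1.66 ± 0.23 (adjusted p = 7.87e-06) and from ATG7KO by -1.56 ± 0.24. MED7 and HPS6 were lower in both comparisons too, at -1.73 and -1.33 against WT. Some genes on this side rose. MYH15, a myosin heavy chain gene, read 2.36, 1.46 and 2.06 CPM against 16.4, 18 and 18.4 CPM, a rise of 3.16 against 5.31 in WT, where its control level was lower by 2.48 on the log2 scale. WNK4, a kinase that controls ion transport, showed the same order, with a rise of 2.48 against 4.06 in WT. At equal depth the differences of WNK4 and MED7 from WT were -1.30 and -1.55 and were not called (adjusted p = 0.16 and 0.134).

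Of the 407 genes that responded higher than in WT, 263 rose here, and 168 of them rose in both lines. Beside FOSB and FOS the largest differences, by the rule for naming genes, were in HCLS1, KCTD8, EMP1 and PYCR3. HCLS1, a haematopoietic adaptor of the actin skeleton, read 0.338 to 0.413 CPM in full medium and 0.914 to 1.35 CPM in EBSS, on 19 reads against 64, whereas WT read 31 ± 1.60 and 24.8 ± 1.33 CPM. KCTD8 and EMP1 were not called in the RB1CC1KO-labelled line (-0.05 and -0.16) and fell in WT by 1.69 each. The difference of KCTD8 was not called without the WT control library 2 (1.44, adjusted p = 0.0606), without the WT library 2 in EBSS (1.32, adjusted p = 0.0793) or at equal depth (2.08, adjusted p = 0.104), nor that of EMP1 at equal depth (1.35, adjusted p = 0.246). In full medium EMP1 stood below WT already (-1.66, adjusted p = 5.66e-06). PYCR3 fell less, by 0.43 against 1.84. Against ATG7KO the genes named on the higher side were SPRY4, PTGS2, THBS1, FOS, EGR1 and HCLS1. PTGS2, the inducible cyclooxygenase and itself an early response gene, read 0.767, 1.18 and 1.15 CPM against 16.6, 13.8 and 13.2 CPM, a rise of 3.80 ± 0.24 against 1.50 in ATG7KO, a difference of 2.31 ± 0.45 (adjusted p = 0.00184). At equal depth that difference was 2.11 and not called (adjusted p = 0.103). Those of HCLS1 from WT and from ATG7KO were not called at equal depth either (1.43 and 1.25, adjusted p = 0.152 and 0.379), nor was that of THBS1 from ATG7KO (1.83, adjusted p = 0.269).

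The counts against the other lines rest on single libraries more than the response itself. Against WT 788 genes were called without the WT library 1 in EBSS and 824 without the RB1CC1KO-labelled control library 2, of 1238 with all libraries. Against ATG7KO 295 were called without the ATG7KO library 2 in EBSS and 309 without the RB1CC1KO-labelled EBSS library 1, of 498. Without ATG7KO library 1 in EBSS, 56.1% of the genes called against ATG7KO were higher, compared with 29.9% with all libraries.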

How the data were processed

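RNA of 18 HAP1 libraries was compared, 3 in each of 6 groups. The authors deposited raw read counts per Ensembl gene, 1 file a library. Per the submitters' processing notes, the tools were STAR (2.4.2a), HTSeq (0.6.1p1), Picard, edgeR and DESeq2, and the build GRCh37 (hg19). For the strand setting and the annotation release, no statement was found in the sources used here. The 5 summary lines of each file (reads outside genes, ambiguous and the like) entered neither library sizes nor tests. Reads outside genes made up 9.39% to 15.1% of the RB1CC1KO-labelled libraries.

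All 18 libraries were fitted in 1 model with 6 group means (edgeR 4.0.16 in R 4.3.3, TMM scaling, filterByExpr, robust quasi-likelihood F test, Benjamini-Hochberg adjustment over 15179 genes). Response differences were interaction terms of that model. The SE is the log2 fold change divided by the square root of F, and CPM values were scaled by TMM. The test was also run on simulated counts with the same spread for every gene and changes added to a small part of the genes. In the real libraries 9886 of 15179 genes were called, so that run does not check the scaling used here. Labels call the libraries independent biological replicates, and no replicates were identical.

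Symbols and exon numbers came from GENCODE 29 (52526 of 63677 identifiers matched). Promoter bases came from RefSeq (GRCh38.p14), which held 11025 of the tested genes and 153 of 192 named genes.

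The members and the 43 gene lists were chosen with earlier results of these data known. Named were RB1CC1, FOS, EGR1, DDIT4 and PARS2. To these were added the protein-coding genes whose mean log2 CPM was 1 or more, with an adjusted p below 0.05 and no overlap of groups that had the 12 largest changes in each direction, or the 6 largest for each response difference, and up to 4 members of each list by smallest p. Other list members were named after their values were seen.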

Additional observations from a re-analysis of the deposited data

Results flagged for a closer look

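These are the named genes whose response in the RB1CC1KO-labelled line differed from that of another line with a call in edgeR's quasi-likelihood test (3 libraries a group) and by at least 2-fold, as log2 differences. Since the same RB1CC1KO-labelled libraries enter both comparisons, the values stand side by side and are not independent. Against WT 9 genes were higher and 13 lower. The higher ones were FOSB (2.62) and FOS (2.02) among the early genes, HCLS1 (1.95), KCTD8 (1.64), EMP1 (1.53), PYCR3 (1.40), THBS1 (1.39), PYGM (1.22) and ANKRD37 (1.03). The lower ones were MYH15 (-2.15) and WNK4 (-1.58), which rose in both lines, and PARS2 (-1.92), MED7 (-1.73), BLOC1S3 (-1.66), OLIG2 (-1.61), MYCL (-1.56), ZNF441 (-1.47), IFIT5 (-1.35), HPS6 (-1.33), SYT1 (-1.21), BTG2 (-1.01) and MGA (-1.0).

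Against ATG7KO 14 genes were higher and 10 lower. The higher ones were SPRY4 (2.63), PTGS2 (2.31), THBS1 (2.11), FOS (1.91), EGR1 (1.83), HCLS1 (1.78), EGR3 (1.47), ANKRD37 (1.41), BCL6 (1.40), GABARAP (1.37), CCN1 (1.33), PYGM (1.27), KLF10 (1.18) and ZFP36 (1.01). The lower ones were FOXF1 (-2.06), WNK4 (-1.93), PARS2 (-1.62), BLOC1S3 (-1.56), ADORA1 (-1.51), SYT1 (-1.45), OLIG2 (-1.39), MED7 (-1.39), HPS6 (-1.25) and MYCL (-1.25). The values of FOXF1, ADORA1 and SYT1 against ATG7KO were not called in 8, 8 and 8 of 12 fits that each left out 1 library.

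Some of these genes stood apart in full medium already. HCLS1 was lower than in WT by 6.35 on the log2 scale (adjusted p = 1.16e-26) and THBS1 by 2.73 (adjusted p = 1.24e-09). MYH15 and WNK4 were higher, by 2.48 and 1.78.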

How the results depend on the processing

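The number of genes called for EBSS in the RB1CC1KO-labelled line was 9886, and it lay between 9323 and 9545 when 1 of its libraries was left out. It was 10242 with upper-quartile scaling, 9895 with RLE scaling, 10208 with no filter on low counts, 9642 with DESeq2, 9377 with the 6 libraries alone and 7791 at equal depth. The difference from WT gave 1238 genes, between 788 and 1588 with 1 library left out, 571 at equal depth and 1321 with DESeq2. The difference from ATG7KO gave 498, between 295 and 468, 168 and 494. With only the 12 libraries of the lines compared, 43.8% rather than 32.9% of the genes called against WT were higher, and 46.7% rather than 29.9% of those called against ATG7KO. No named gene changed direction while called. Of the values for EBSS in this line, 2453 were unchanged, 32 lost the call and 7 gained it. The 2453 hold values of named genes that kept their side of the threshold. They also hold the total of genes called under each alternative setting. For the differences of named genes, 221 kept their side and 7 lost the call against WT. Against ATG7KO 195 kept their side and 33 lost the call. At equal depth MED7 differed from WT by -1.55 and was not called (adjusted p = 0.134). FOS, EGR2, INHBE, TTC30B and PARS2 had few reads in their lower group, which limits the precision of their folds. At equal depth TTC30B stood at -6.24 and TMEM177 at -5.61, BLOC1S3 at -3.21, SPRY4 at 3.59 and INHBE at 4.56. The causes of these shifts were not tested.

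The main fit does not pair libraries by replicate number. Deviations from the group means of same-numbered control and starved libraries correlated at 0.045, 0.221 and -0.016. For libraries of unlike number the correlations ran from -0.169 to 0.108. With 3 libraries a group these values cannot tell whether the numbers mark pairs. With the replicate number as a block, 9991 genes were called for EBSS, 1582 for the difference from WT and 555 for the difference from ATG7KO.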

Other observations

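Some genes outside the comparisons named above stood out by their values. LTA, the lymphotoxin gene, had 3 reads in the control libraries and 328 in the starved ones, and CD14, a monocyte surface gene, 2 and 75. ESRP1, an epithelial splicing regulator, read below WT by 6.82 on the log2 scale in full medium. Of the 8 neural markers tested 1 rose in EBSS, TUBB3, a neuronal tubulin, by 1.43, and 3 fell. FN1, fibronectin, rose by 1.24, on a mesenchymal list where 3 of 9 tested rose and 3 fell.

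Among promoters of called genes at least 2-fold higher in EBSS, 2.34% of 939 held the letters TGATGNAA and 1.38% held a CArG box. Among those at least 2-fold lower, 1.01% and 0.507% of 1184 did. All tested genes gave 1.33% and 0.998%. The other motifs searched were also more frequent in the higher than in the lower set. The cyclic AMP response element was found in 3.19% and 2.2%, against 2.91% of all tested genes. Shares were 2.77% and 1.94% against 1.85% for the FOXO site, and 1.7% and 0.591% against 1.69% for the CLEAR core.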
